A study of Mus musculus with 10 samples.

Results

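Complex I, NADH:ubiquinone oxidoreductase, is the entry point of the mitochondrial respiratory chain, and its nuclear genes were examined here in hearts of HIPK2 knockout and wild-type mice. They were taken as every array probe that is not a control and whose gene name starts with Nduf, with Ndufb6 left out by rule. These were 69 of the 56605 probes on the array, for 44 genes, of which 24 had 1 probe and 20 had several. By role the genes fell into 7 core subunits, 28 accessory subunits and 7 assembly factors, with Ndufa4 and Ndufa4l2 kept apart. A probe entered the comparison if, in 1 genotype or both, 4 or more of the 5 arrays read it well above background. This left 63 probes, with at least 1 for each of the 44 genes, which stand among 20607 genes tested. The 6 probes not retained were additional probes of Ndufa4l2, Ndufa7, Ndufaf5, Ndufb2, Ndufs3 and Ndufs5. Each gene was represented by its brightest retained probe.

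Complex I takes electrons from NADH, passes them along flavin and iron-sulphur clusters to ubiquinone, and pumps protons across the inner mitochondrial membrane. The core subunits carry out catalysis and pumping and are conserved from bacteria, with some encoded in the nucleus and the rest, the ND subunits, in mitochondrial DNA. Accessory subunits surround and stabilise the core, and assembly factors help to build the enzyme without staying in it. Heart muscle is rich in mitochondria and in this complex.

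The samples were total RNA from cardiac tissue of male C57BL/6 mice, 5 labelled knockout and 5 labelled wild type, each on its own 1-colour Agilent array. The knockout mice were homozygous for a 56-base deletion in the second exon of Hipk2, which encodes a nuclear kinase, made by CRISPR in embryos, and the line was bred with wild-type C57BL/6 mice. The loss was in the whole animal, not in 1 cell type. Ages, the part of the heart and whether each sample was a separate mouse are not stated in the labels, and the p-values therefore cover the spread among samples, whatever its source.

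The 3 Hipk2 probes differed between genotypes by -0.01 to 0.11 (log2) and none was called, and none shared a run of 15 bases with the deleted stretch, so these probes do not check the labels. Array signal, as the 75th percentile over spots, was 378.3 ± 75.3 in knockout against 499.5 ± 31.9 in wild type (SD over 5 arrays), with no overlap (exact permutation test, two-sided, p = 0.00794, the lowest value possible with 5 and 5 arrays). Spots well above background made up 45.8% to 58.3% of each knockout array and 55.7% to 60.4% of each wild-type array. Wild-type replicates 1 and 2 lay on slide 1 and the other 8 arrays on slide 2. On slide 2, wild-type replicates 3 to 5 lay in array row 1 with knockout replicate 1. Knockout replicates 2 to 5 lay in row 2. Genotype and array row can therefore hardly be told apart within slide 2. The 10 cardiomyocyte markers were all measured, 9 of them with a difference above 0, and their mean was 8.25 to 8.69 in knockout and 7.78 to 8.31 in wild type (log2, relative to the 75th percentile). The mean of 3 atrial markers ran from -2.75 to 1.56 in knockout and from -3.02 to 4.81 in wild type. The mean of the 4 fat markers measured, of 6 listed, ran from -5.04 to -2.96 in knockout and from -4.17 to 0.29 in wild type, with Adipoq and Plin1 not retained. The mean of 9 macrophage markers, all 9 with a difference below 0 and 8 at an unadjusted p under 0.05, ran from 1.43 to 1.97 in knockout and from 1.94 to 2.21 in wild type. The mean of 6 endothelial markers, all 6 below 0 with Kdr called (-0.80, limma adjusted p = 0.0147), ran from 2.45 to 2.75 in knockout and from 2.78 to 3.02 in wild type. Of all genes tested, 12.3% were lower at an unadjusted p under 0.05 and 2.97% were called lower. The mean of 6 fibroblast markers, 4 of them below 0, ran from 2.82 to 3.71 in knockout and from 3.38 to 3.65 in wild type.

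Genes of the respiratory chain share regulators, so RefSeq promoter windows, from 250 bases before to 50 after each transcription start (GRCm38.p6), were searched on both strands for the letters of 4 motifs. Windows were found for 37 of the 42 core, accessory and assembly genes. The letters GCGCA followed, after any 1 base, by GCGC, bound by NRF1, the nuclear respiratory factor, were present in 9 of the 37 (24.3%), against 5.19% of all 27025 genes with a window. By class, they were 0 of the 5 core subunits with a window, 7 of 26 accessory subunits and 2 of 6 assembly factors. AAGATGGC, bound by YY1, was present in 7 (18.9%) against 3.19%, and each match started 22 to 38 bases after the transcription start. CGGAAGTG, bound by ETS factors such as GABP, was present in 2 (5.41%) against 3.86%, and TCAAGGTCA, bound by the oestrogen-related receptors, in 0 against 0.466%. Complexes II to V, the rest of the respiratory chain, had windows for 36 genes. The NRF1 letters were present in 27.8% of these and the YY1 letters in 8.33%. The ETS and oestrogen-related receptor letters were present in 5.56% each. At least 1 of the 4 motifs was present in 43.2% of the complex I windows and in 11.7% of all windows. No motif contains another, and matches of different motifs were counted separately even where they lay in 1 window. A match describes the letters and not a bound site. The 27025 genes were not limited to the 20607 tested here, and a gene counted if any of its windows matched. The stretches below show matches upstream of the start, in capitals and on the strand of the gene, for 1 assembly factor and 3 accessory subunits with the NRF1 letters, and for Ndufa9 with the ETS letters read on the opposite strand.
Ndufaf4, chr4:24897945-24898004: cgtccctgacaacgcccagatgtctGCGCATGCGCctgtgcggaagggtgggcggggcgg
Ndufa11, chr17:56717677-56717736: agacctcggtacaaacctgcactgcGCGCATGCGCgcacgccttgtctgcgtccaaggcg
Ndufs5, chr4:123718250-123718309: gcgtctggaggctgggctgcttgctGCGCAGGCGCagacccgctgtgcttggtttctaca
Ndufb4, chr16:37654525-37654584: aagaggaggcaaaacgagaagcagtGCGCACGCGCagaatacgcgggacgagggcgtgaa
Ndufa9, chr6:126849191-126849248: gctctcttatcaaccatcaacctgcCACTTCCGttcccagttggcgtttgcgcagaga

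None of the 44 Nduf genes changed past the threshold between genotypes, and the size and sign of the differences turned on how the arrays were scaled. With each array set relative to its 75th percentile, all 42 core, accessory and assembly genes had a higher mean in knockout, with a median difference of 0.24 (log2) and a range of 0.05 to 0.42. With arrays quantile-normalized, 23 of the 42 had a higher mean, and the median was 0.01. In limma with Benjamini-Hochberg adjustment over 20607 genes, 0 of the 44 genes were called under either scaling, against 4.94% of all genes under percentile scaling and 6.36% under quantile scaling. At an unadjusted p under 0.05, 17 of the 42 were higher under percentile scaling and none lower, where 14.8% of all genes were higher and 12.3% lower. Under quantile scaling 4 were higher and 2 lower, against 12.9% and 14.6% of all genes. A difference above 0 was found in 54.1% of all genes under percentile scaling, with a median of 0.03, and in 49.2% under quantile scaling, with a median of -0.01. In bulk tissue, a larger share of heart muscle cells and more transcript in each such cell cannot be told apart. Neither can be told apart from an effect of array signal, which was lower in knockout without overlap. All values below are log2 signal relative to the array's 75th percentile unless quantile scaling is named, and differences run from wild type to knockout, each with its standard error (SE) from limma.

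**Figure D1:**
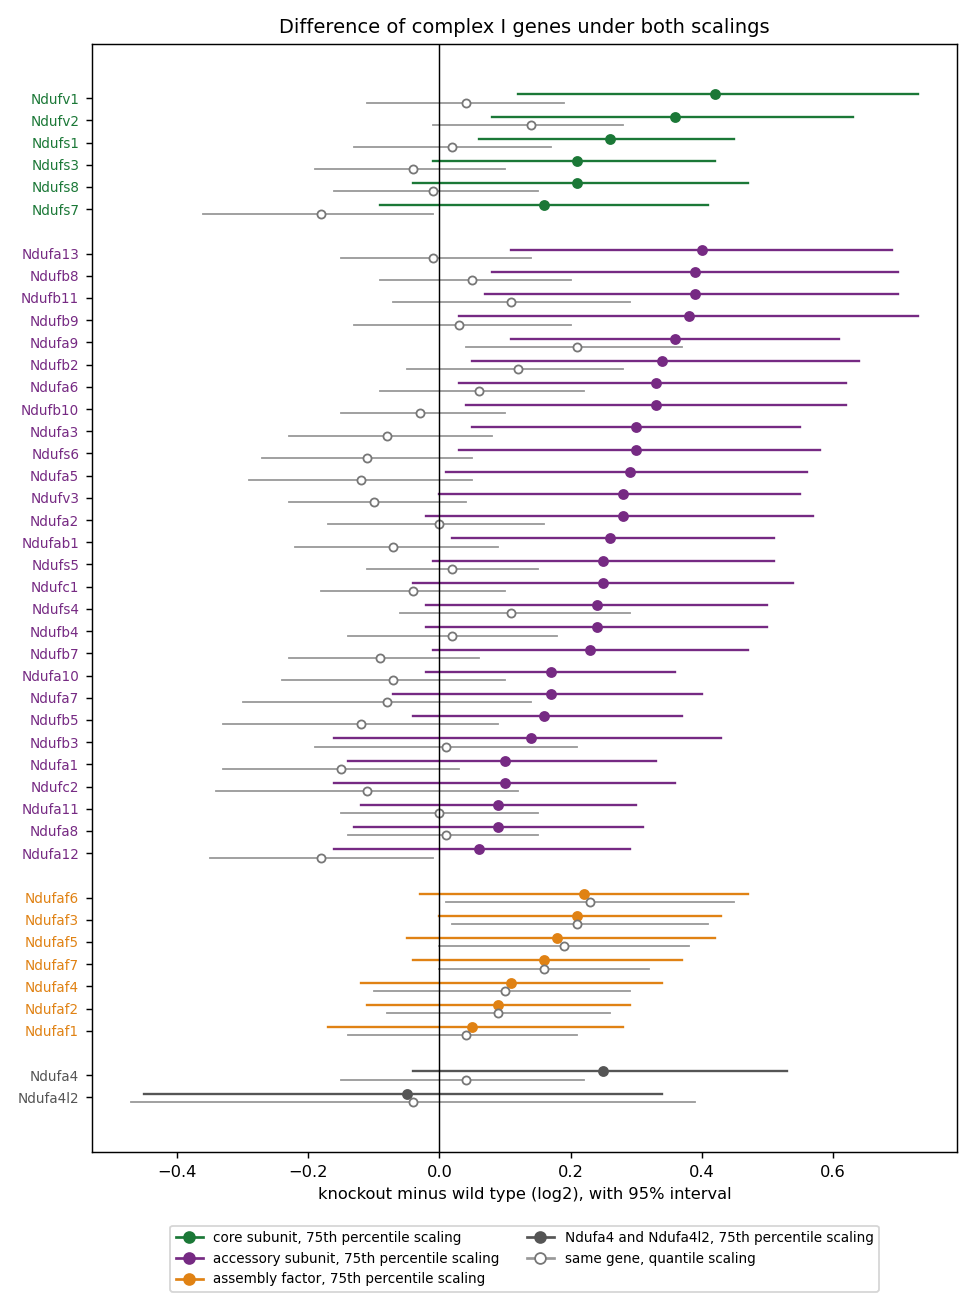
Knockout minus wild-type difference (log2, x axis) of complex I genes, each with its 95% interval. Filled points are percentile scaling, coloured by class, and open points are quantile scaling. All filled points of core, accessory and assembly genes lie above 0, whereas open points of core and accessory genes lie on both sides of 0 and those of the 7 assembly factors stay above it.

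The 7 nuclear core subunits all had a higher mean in knockout under percentile scaling, with differences of 0.16 to 0.42 and a median of 0.26, and 4 of them had an unadjusted p under 0.05. Under quantile scaling 4 of the 7 were above 0, with a median of 0.02 and a range of -0.18 to 0.15. The subunits that oxidise NADH are Ndufv1, which binds NADH and flavin, and its iron-sulphur partners Ndufv2 and Ndufs1. Ndufv1 signal was 8.51, 8.29, 8.45, 8.71 and 8.26 in knockout replicates 1 to 5 and 7.82, 7.69, 8.37, 8.07 and 8.15 in wild-type replicates 1 to 5. Wild-type replicate 3 lay above knockout replicates 2 and 5, so the groups overlapped. The difference was 0.42 (SE 0.14, 1.34-fold, limma adjusted p = 0.0932), the largest among the 42 under this scaling, and 0.04 under quantile scaling (adjusted p = 0.75). Within slide 2 the Ndufv1 difference was 0.25 (SE 0.13, limma adjusted p = 0.305).

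Ndufs1, the iron-sulphur subunit that passes electrons from the flavin towards the rest of the enzyme, was the 1 gene of the 42 with no overlap between groups. Its signal was 7.54, 7.44, 7.33, 7.63 and 7.38 in knockout and 7.23, 7.02, 7.26, 7.24 and 7.29 in wild type. All knockout values lay above all wild-type values, a pattern that 4.54% of all genes showed in that direction and 8.98% in either direction. The difference was 0.26 (SE 0.09, 1.19-fold, limma adjusted p = 0.102), and it was 0.02 under quantile scaling, where the groups overlapped. Without wild-type replicate 2, whose value stood below the other 4, or any other single array, the difference lay between 0.21 and 0.29.

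Ndufs3, Ndufs7 and Ndufs8 belong to the module that reduces quinone. Ndufs7 differed by 0.16 under percentile scaling and by -0.18 under quantile scaling, with limma adjusted p of 0.387 and 0.169. Ndufs3 and Ndufs8 each differed by 0.21 under percentile scaling and by -0.04 and -0.01 under quantile scaling.

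The 28 accessory subunits gave the same median as the core subunits under percentile scaling, 0.26, with a range of 0.06 to 0.40, and 13 of them had an unadjusted p under 0.05. Under quantile scaling 12 were above 0 and 16 were not above it, with a median of -0.02 and a range of -0.18 to 0.21. Ndufa9, a nucleotide-binding subunit next to the quinone module, had the smallest p of the 44 Nduf genes. Its signal was 6.81, 6.65, 6.73, 6.97 and 6.59 in knockout and 6.32, 6.11, 6.65, 6.40 and 6.49 in wild type. Wild-type replicate 3 equalled knockout replicate 2 and exceeded knockout replicate 5, and the other wild-type values lay below all knockout values. The Ndufa9 difference was 0.36 (SE 0.11, 1.28-fold, limma adjusted p = 0.0848). Its difference under quantile scaling was 0.21 (SE 0.08, adjusted p = 0.112), the largest of the 35 core and accessory genes.

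Ndufa13, also known as GRIM-19, is a subunit at the junction of the membrane and matrix arms. Its signal was 8.96, 8.66, 8.98, 9.06 and 8.59 in knockout and 8.30, 8.15, 8.67, 8.49 and 8.63 in wild type. Knockout replicate 5 lay below wild-type replicates 3 and 5, so the groups overlapped. The difference was 0.40 (SE 0.13, 1.32-fold, limma adjusted p = 0.0936), and it was -0.01 under quantile scaling. Ndufb8, a membrane-arm subunit often used as a marker of assembled complex I, measured 8.32, 8.04, 8.37, 8.40 and 7.93 in knockout and 7.69, 7.46, 8.03, 7.91 and 8.03 in wild type. Its difference was 0.39 (SE 0.14, 1.31-fold, limma adjusted p = 0.112), against 0.05 under quantile scaling. At the other end of the class Ndufa12, the last of the accessory subunits by difference, gave 0.06 and, under quantile scaling, -0.18 (limma adjusted p = 0.171).

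The 7 assembly factors kept their sign under both scalings. Their mean signal was 1.80 to 3.31, where the 2 scalings differed little for other genes. Those had medians of -0.01 under both at a signal of 0 to 2. At 2 to 4 the medians were 0.01 under percentile and 0 under quantile scaling. All 7 had a higher mean in knockout under both, with a median difference of 0.16 under each and ranges of 0.05 to 0.22 and 0.04 to 0.23. None had an unadjusted p under 0.05 under percentile scaling and 3 did under quantile scaling. Ndufaf3, a factor for the quinone module that works with Ndufaf4, measured 2.45, 2.65, 2.57, 2.77 and 2.51 in knockout and 2.27, 2.21, 2.61, 2.41 and 2.39 in wild type. Of its wild-type values, that of replicate 3 lay within the knockout range and the other 4 below it. The Ndufaf3 difference was 0.21 (SE 0.10, 1.16-fold, limma adjusted p = 0.188), and 0.21 again under quantile scaling (adjusted p = 0.154).

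Ndufaf6, which acts early in assembly, measured 2.15, 1.79, 1.79, 2.16 and 1.67 in knockout and 1.71, 1.60, 1.60, 1.70 and 1.84 in wild type. Knockout replicates 1 and 4 stood above every other array and the rest overlapped. Its difference was 0.22 (SE 0.11, 1.17-fold, limma adjusted p = 0.232). Ndufaf7, a mitochondrial methyltransferase, measured 3.18, 2.98, 2.74, 3.13 and 2.88 in knockout and 2.79, 2.77, 2.80, 2.87 and 2.85 in wild type. Knockout replicate 3 was the lowest of the 10 arrays and the other 4 knockout values lay above all wild-type values. The Ndufaf7 difference was 0.16 (SE 0.09, 1.12-fold, limma adjusted p = 0.281). Ndufaf5, which hydroxylates Ndufs7, differed by 0.18, Ndufaf4 by 0.11, Ndufaf2 by 0.09 and Ndufaf1 by 0.05, with limma adjusted p of 0.285 to 0.774.

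**Figure D2:**
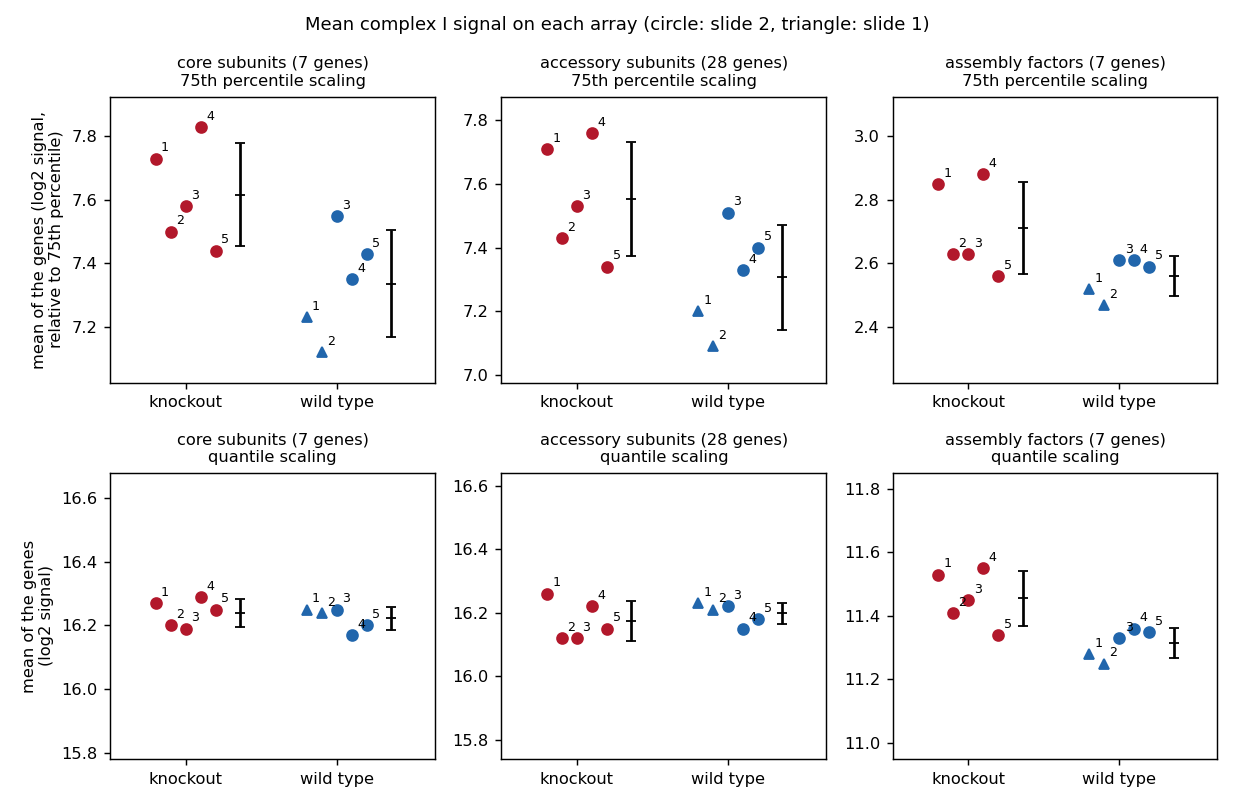
Mean log2 signal on each array over the 7 core, 28 accessory and 7 assembly genes (columns), under percentile scaling (upper row, relative to the 75th percentile) and quantile scaling (lower row). Points are numbered by replicate, triangles are the arrays of slide 1, and the bar is the mean ± SD of 5 arrays. Wild-type replicates 1 and 2 are lowest in all 3 upper panels, and core and accessory means of the genotypes lie at nearly the same height in the lower panels.

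Averaged over each class on each array, the core genes stood at 7.44 to 7.83 in knockout and 7.12 to 7.55 in wild type, with means of 7.62 ± 0.162 and 7.34 ± 0.168 (SD, n = 5). The accessory genes stood at 7.34 to 7.76 and 7.09 to 7.51. The assembly factors stood at 2.56 to 2.88 and 2.47 to 2.61. The groups overlapped for each class. Wild-type replicates 1 and 2, the arrays of slide 1, gave the lowest class means, and knockout replicates 1 and 4 the highest. Under quantile scaling the core mean was 16.24 ± 0.0436 in knockout and 16.22 ± 0.0356 in wild type, and the accessory mean 16.17 ± 0.0631 and 16.20 ± 0.0327. The assembly mean was 11.46 ± 0.0865 and 11.31 ± 0.0472 on that scale. Within slide 2, under percentile scaling, 38 of the 42 genes were above 0 and none had an unadjusted p under 0.05, with medians of 0.20 for core, 0.16 for accessory and 0.12 for assembly genes.

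Ndufa4, once counted as a complex I subunit and now placed in complex IV, had a difference of 0.25 (SE 0.13, limma adjusted p = 0.242) under percentile scaling and of 0.04 under quantile scaling. Its signal was 7.45, 6.91, 6.99, 7.39 and 6.90 in knockout and 6.84, 6.72, 7.04, 6.89 and 6.91 in wild type. Knockout replicates 1 and 4 stood above the other 8 arrays, which lay close together. Ndufa4l2, its hypoxia-induced relative, measured 1.77, 2.35, 2.58, 1.91 and 2.30 in knockout and 1.95, 1.94, 2.60, 2.29 and 2.39 in wild type. The Ndufa4l2 difference was -0.05 (SE 0.18, limma adjusted p = 0.874), with a 95% interval of -0.45 to 0.34, and it was the 1 gene of the 44 with a lower mean in knockout under percentile scaling.

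Under percentile scaling the median difference of other genes was larger in bands of brighter probes from a brightness of 4 upwards, while that of the complex I genes varied between bands without such an order. Here brightness is the mean signal of the gene's probe over the 10 arrays, and it ran from 6.87 to 8.23 for core, 5.38 to 8.65 for accessory and 1.80 to 3.31 for assembly genes. Among genes neither in this set nor on the list of complexes II to V, the median difference was -0.01 at a brightness of 0 to 2, 0.01 at 2 to 4, 0.07 at 4 to 6, 0.14 at 6 to 7, 0.25 at 7 to 8 (185 genes, 95.1% above 0) and 0.43 at 8 and over (110 genes, 99.1% above 0). The complex I genes in the same bands had medians of 0.22 (1 gene), 0.14 (6 genes), 0.09 (2 genes), 0.29 (4 genes), 0.24 (19 genes) and 0.32 (10 genes). Under quantile scaling the other genes had medians of -0.01 to 0.02 in these 6 bands, and the complex I genes 0.23, 0.13, 0, 0.13, -0.04 and -0.05. In the 2 brightest bands the complex I medians were below those of other genes under either scaling, and in the band that holds 6 of the 7 assembly factors they were above. These are medians side by side, with no test of a class against other genes.

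**Figure D3:**
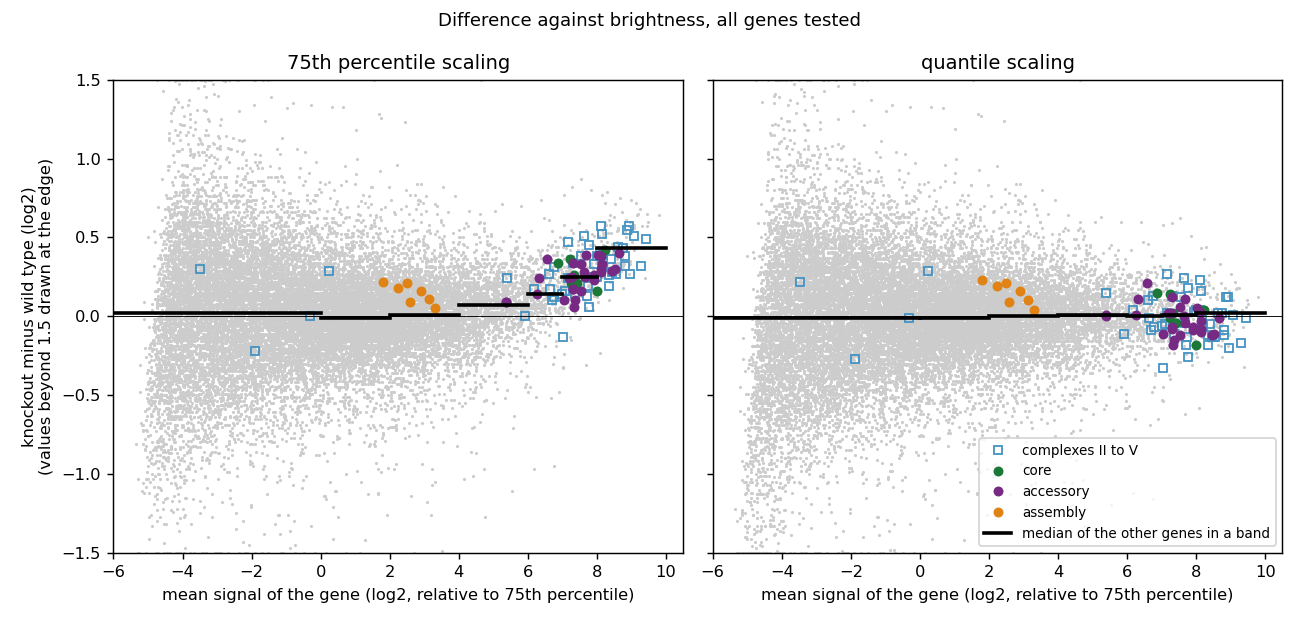
Knockout minus wild-type difference (log2, y axis) against the mean signal of each of 20607 genes (x axis), under percentile scaling (left) and quantile scaling (right). Grey points are other genes, coloured points are complex I genes by class, open squares are complexes II to V, and black lines are medians of the other genes in each band. On the left the line rises from 0.01 to 0.43 across the bright bands and core and accessory genes lie on both sides of it, and on the right it stays at 0 to 0.02 over those bands.

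Genes of the rest of the respiratory chain were set beside these. The list of complexes II to V, made by gene name, covers succinate dehydrogenase, cytochrome and ATP synthase genes and includes the pseudogene Atp5c1-ps. Of its 49 entries, counted by name with Atp5f1 (-0.22) and Atp5pb (0.19) separate, 46 were above 0 under percentile scaling with a median of 0.29. Under quantile scaling 22 were above 0, with a median of -0.01. None was called under percentile scaling, against 4.94% of all genes. At an unadjusted p under 0.05, 33 were higher, where 14.8% of all genes were higher. Under quantile scaling 1 gene of complex IV was called lower, where 6.36% of all genes were called in either direction. The 10 cardiomyocyte markers had a median difference of 0.52 under percentile scaling and 0.04 under quantile scaling. With the atrial score in the fit, 42 of the 42 complex I genes remained above 0 (medians 0.23, 0.28 and 0.13 for core, accessory and assembly), and with the fat score 39 of 42 (0.14, 0.18 and 0.09). None was called in either fit, where 0.277% of all genes were called with the atrial score and 0.034% with the fat score. The part of cardiomyocyte, macrophage, endothelial and fibroblast markers and array signal in the differences was not tested.

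The mitochondrially encoded ND subunits, the proton-pumping core of the membrane arm, are not Nduf genes but complete the enzyme, and 6 of the 7 were higher in knockout on average. Of the 18 other complex I genes listed, 17 were measured, Coa1 being the exception, and 1 passed the test. This was ND5, a proton-pumping subunit, with 7.54, 7.43, 7.84, 7.59 and 7.24 in knockout and 6.74, 6.74, 7.17, 7.0 and 7.23 in wild type. All knockout values lay above all wild-type values, with replicate 5 of each genotype nearly equal. ND5 rose by 0.55 (SE 0.14, 1.47-fold, limma adjusted p = 0.0467), where 1.97% of all genes were called higher. The call was absent under quantile scaling (0.32, adjusted p = 0.0685), within slide 2 (0.40, adjusted p = 0.16) and with the replicate block (0.55, adjusted p = 0.09). Other settings without it included 50th percentile scaling (adjusted p = 0.06) and 9 of the 10 fits that left out 1 array. The call held with normexp under percentile scaling (adjusted p = 0.024, 15.1% of all genes called) and quantile scaling (0.0455, 7.51%). It also held with probes above background on all 10 arrays (0.0328, 7.25%) and with probe averaging (0.0465, 5.06%).

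In the reported fit none of the other 6 ND transcripts was called, and 5 of them were above 0. ND4L and ND1 were called with normexp and percentile scaling (limma adjusted p = 0.0284 and 0.0362). Both were also called with probes above background on all 10 arrays (0.0364 and 0.0457), and ND4L in 1 of the 10 fits without 1 array. ND4L, whose groups did not overlap, differed by 0.58 (SE 0.15, limma adjusted p = 0.0511), ND1 by 0.53, ND4 by 0.59, ND2 by 0.77 and ND3 by 0.82, each of these 4 with overlapping groups. ND3 stood at 6.18 and 6.24 on the slide 1 arrays, at 7.26 to 7.42 on the other wild-type arrays and at 7.33 to 8.25 in knockout. Within slide 2 the differences of ND1, ND2, ND3, ND4, ND4L and ND5 were 0.30 to 0.40, and that of ND6 was -0.11. ND6, the 1 subunit encoded on the opposite strand of mitochondrial DNA, differed by -0.20 (limma adjusted p = 0.352). Its probe was dim, at -3.17 to -2.46 over the arrays. The ND6 difference was 0.04 with normexp and percentile scaling and 0.09 with slide and array row as blocks. Under quantile scaling the 7 ND genes had a median of 0.31, against 0.02 for the nuclear core subunits, and 6 of 7 remained above 0.

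**Figure D4:**
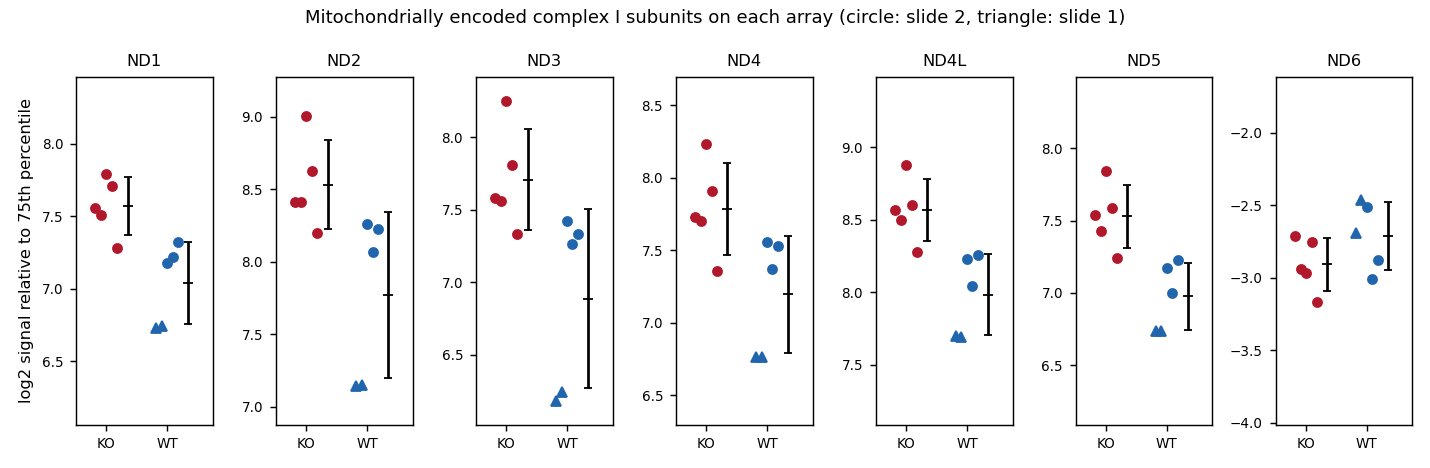
Log2 signal relative to the 75th percentile (y axis, each panel spanning the same range) of the 7 mitochondrially encoded complex I subunits on each array, with mean ± SD of 5 arrays per genotype. Circles are slide 2 and triangles slide 1. For all but ND6 the slide 1 arrays are lowest, and the ND5 and ND4L groups do not overlap.

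The remaining listed assembly factors carry other names. None of the 10 measured was called, and 8 were above 0 under percentile scaling with a median of 0.06. Timmdc1, a membrane-arm assembly factor, differed by 0.40 (SE 0.14, limma adjusted p = 0.107) and by 0.39 under quantile scaling. On slide 2 it read 3.19 to 3.74 in knockout and 2.80 to 2.97 in wild type, and on slide 1 it read 3.35 and 3.25. With slide as a block its difference was 0.58 (adjusted p = 0.0409), and within slide 2 the same (adjusted p = 0.0626). As the mean of the probes of the gene, its difference was 0.10 (adjusted p = 0.539). Nubpl, which delivers iron-sulphur clusters to complex I, differed by 0.21 under both scalings (limma adjusted p = 0.17 and 0.123). Ndufaf8, listed on the array under a clone name and so outside the rule, differed by 0.11 (limma adjusted p = 0.479).

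Of 10 genes for mitochondrial regulators and mitochondrial content, 1 was called. Ppargc1a, the coactivator PGC-1alpha that drives respiratory gene transcription, read 3.88, 3.65, 3.26, 3.69 and 3.22 in knockout and 4.18, 4.15, 4.55, 4.12 and 4.83 in wild type. All knockout values lay below all wild-type values. Ppargc1a fell by 0.82 on the log2 scale (SE 0.17, 1.77-fold lower, limma adjusted p = 0.0301), where 2.97% of all genes were called lower, and it fell by 0.84 under quantile scaling (adjusted p = 0.0183). The call held in 6 of the 10 fits that left out 1 array, and within slide 2 the difference was -0.96 (adjusted p = 0.0507). It was lost with the replicate block (adjusted p = 0.099), the atrial score (0.101), the fat score (0.124), slide and array row (0.387) and no filter (0.074). Nrf1 differed by -0.23, Esrra by -0.08, Gabpa by -0.02, Tfam by 0.05 and Polrmt by 0.07, and none was called. Among the content genes, Cs, citrate synthase, differed by 0.30 (limma adjusted p = 0.0894), Vdac1, the outer-membrane channel, by 0.26 and Tomm20, an import receptor, by -0.24. Under quantile scaling these were -0.10, 0.08 and -0.25. The 9 complex I genes with the NRF1 letters had a median difference of 0.24 and the 28 without them 0.22, and under quantile scaling 0.02 and -0.02.

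Several probes of 1 gene did not always give the same sign. Of the 16 genes with more than 1 retained probe, Ndufv2, Ndufa10, Ndufs1, Ndufa3 and Ndufab1 each had 1 additional probe below 0, and at probe level none of the 63 was called, against 4.44% of all 30693 probes tested. The 3 probes whose difference departed most from that of the main probe of their gene were designed on cDNA clones or an Ensembl transcript, and they are shown as 60-base array oligonucleotides with their mm9 positions. Exon and intron annotation of mm9 was not used here.
Ndufv2, clone AK044019, chr17:66442062-66442121: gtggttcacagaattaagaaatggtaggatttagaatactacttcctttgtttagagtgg
Ndufv3, clone AK160289, chr17:31663758-31663817: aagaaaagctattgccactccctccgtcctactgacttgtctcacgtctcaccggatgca
Ndufa10, transcript ENSMUST00000189582, chr1:94369356-94369415: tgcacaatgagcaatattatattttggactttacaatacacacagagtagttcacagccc

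The Ndufv2 clone probe, on the minus strand, read -4.41, -4.40, -5.25, -5.51 and -4.38 in knockout and -3.72, -4.04, -4.58, -4.00 and -3.47 in wild type. Its signal cleared background on 2 of 5 knockout arrays and on 5 of 5 wild-type arrays, and wild-type replicate 3 lay within the knockout range. The probe was thus retained through wild type alone, and its fitted difference of -0.83 is taken in part against background and was not called. The main probe read 7.57, 7.30, 7.39, 7.60 and 7.19 in knockout and 6.82, 6.80, 7.31, 7.14 and 7.19 in wild type. Its difference was 0.36 (SE 0.13, limma adjusted p = 0.118), and 0.20 within slide 2 (adjusted p = 0.392).

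The Ndufv3 clone probe, on the plus strand, was well above background on all 10 arrays. It read -2.33, -2.31, -1.81, -2.20 and -2.78 in knockout and -3.96, -3.75, -2.86, -2.76 and -2.81 in wild type. Knockout replicate 5 fell just below wild-type replicate 4, and the slide 1 arrays were lowest. Its difference was 0.94 (SE 0.27, limma adjusted p = 0.067), the largest of the 63 probes in either direction, and 0.89 under quantile scaling (adjusted p = 0.0643). Within slide 2 it was 0.53 (SE 0.19, limma adjusted p = 0.174), while the main Ndufv3 probe gave 0.28 over all arrays and 0.13 within slide 2. Ndufv3 is an accessory subunit next to the flavin site.

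Ndufa10, an accessory subunit related to nucleoside kinases, had 3 probes. The transcript probe, on the minus strand, read -2.42, -1.95, -2.33, -2.32 and -2.16 in knockout and -1.79, -1.90, -2.07, -2.08 and -1.87 in wild type. Only knockout replicate 2 lay within the wild-type range. Its difference was -0.29 (SE 0.11, limma adjusted p = 0.123) and -0.33 under quantile scaling. The other 2 Ndufa10 probes gave 0.17 and 0.19 under percentile scaling and -0.07 and 0.09 under quantile scaling, none called.

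**Figure D5:**
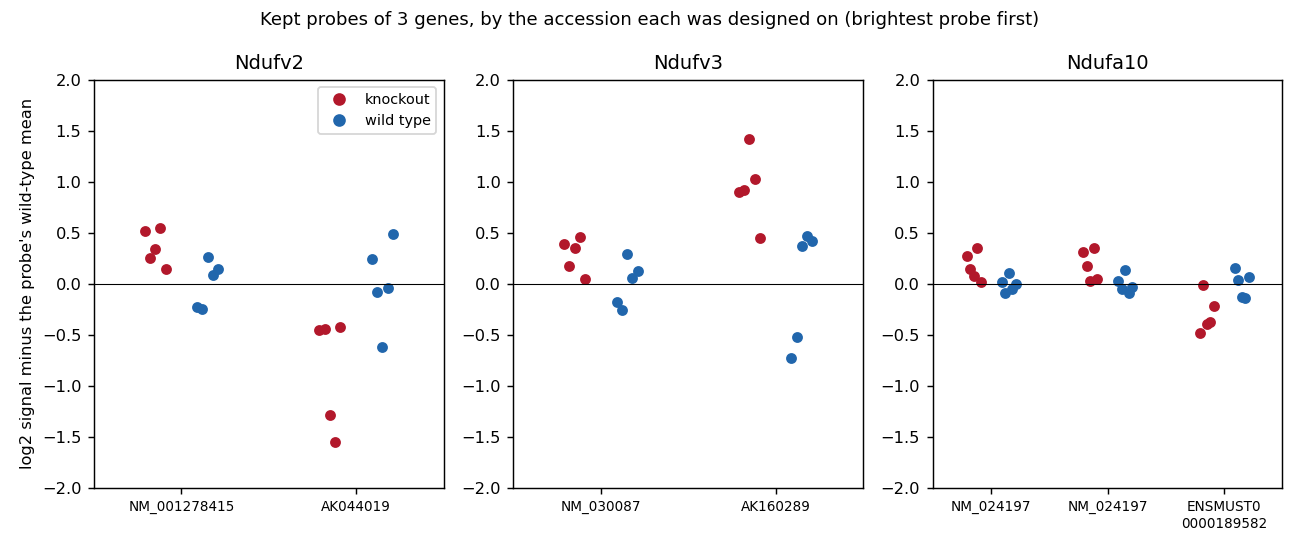
Log2 signal of each retained probe of Ndufv2, Ndufv3 and Ndufa10, minus the wild-type mean of that probe (y axis), by the accession each probe was designed on (x axis). Each point is 1 array. The clone probe of Ndufv2 and the transcript probe of Ndufa10 lie lower in knockout, the clone probe of Ndufv3 lies higher, and the main probes lie slightly higher.

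Ndufa3, a small membrane-arm subunit, measured 8.34, 8.19, 8.29, 8.48 and 8.09 in knockout and 7.88, 7.72, 8.25, 7.97 and 8.07 in wild type at its main probe. The groups overlapped through wild-type replicate 3, and the difference was 0.30 (SE 0.11, limma adjusted p = 0.129). Its transcript probe ENSMUST00000150497 cleared background on 3 of 5 knockout and 5 of 5 wild-type arrays, and was thus retained through wild type alone. That probe gave -0.01, and the other additional Ndufa3 probe 0.23. Ndufab1, the mitochondrial acyl carrier protein, measured 8.19, 7.90, 8.14, 8.24 and 7.80 in knockout and 7.72, 7.59, 7.97, 7.80 and 7.88 in wild type. The difference was 0.26 (SE 0.11, limma adjusted p = 0.162) at this probe and -0.07 at the other. The Ndufs1 transcript probe ENSMUST00000186569 gave -0.08 with an SE of 0.38, which spans the 0.26 of the main probe. Under quantile scaling the main probes of Ndufa3 and Ndufab1 fell below 0, at -0.08 and -0.07.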

How the data were processed

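Members, gene lists and alternatives were chosen with earlier results of these data known. The authors deposited Agilent Feature Extraction 10.7.1.1 files (version from the submitters' processing notes) holding spot intensity on a linear scale, background-subtracted and detrended within each array, per the file headers. Their deposited log2 value table correlated with the quantile-normalized log2 values computed here across probes, with probe means removed, at r = 1 for the same array and at 0.521 or less for any other. It served as an alternative. No column of per-sample values was unmapped (0).

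Control and outlier spots were left out, log2 processed signal was set relative to the 75th percentile of the 59305 spots that are not controls, and spots of a probe were averaged. Filtering left 30693 probes and 20607 genes. Groups came from sample titles. The genotype contrast was fitted by lmFit and eBayes of limma 3.58.1, run in R 4.3.3, with no covariate and at a Benjamini-Hochberg threshold of 0.05, tested on simulated data. The number of arrays limits the precision. Probes carry the mm9 positions of the array files, and promoter windows come from RefSeq (GRCm38.p6).

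Values per array are given for the 3 genes with the smallest p in each class (the values of 1 are not reported here), for Ndufa4 and Ndufa4l2, and for genes whose probes differ in sign with a probe at an unadjusted p under 0.05 (Ndufs1, Ndufa3 and Ndufab1 included). The Ndufv3 probe was chosen after its values were seen. Alternatives covered quantile and 50th percentile scaling, no scaling, normexp (offset 50), filters, probe averaging, slide and array row, the replicate number as a block, marker scores as covariates and leaving out each array. Replicate numbers did not pair the arrays: deviations of same-numbered arrays correlated at -0.11 to 0.05.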

Additional observations from a re-analysis of the deposited data

Results flagged for a closer look

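Ndufs1 in wild-type replicate 2, an array of slide 1, had a signal of 7.02 (log2, relative to the 75th percentile), below the other 4 wild-type values of 7.23 to 7.29. The gap to the nearest value was 0.77 of the range of the group, above Dixon's critical value of 0.71. It was the 1 such value in 102 groups checked, 51 genes in each genotype, where chance gives about 1 in 20.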

How the results depend on the processing

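None of the 44 Nduf genes was called in any of the 26 alternatives. Calls over all genes ran from 0 with slide and array row as blocks to 5911 without scaling between arrays. That count was 1017 in the reported fit, 3111 with normexp (2233 higher), 1310 under quantile scaling, 164 with the replicate block, 173 without a filter, 774 with slide as a block, 458 within slide 2, 57 with the atrial score, 7 with the fat score and 282 to 940 without 1 array. The core median was 0.02 under quantile scaling, normexp with quantile and the deposited value table and -0.17 without scaling between arrays, a setting added after seeing the data. The accessory median was -0.02, -0.03, -0.02 and -0.17 in the same order, and the assembly median was -0.26 without scaling, where the median of all genes was -0.40. Signs turned without scaling for Ndufa9 (-0.06), Ndufa13 (-0.02), Ndufb8 (-0.03), Ndufaf3 (-0.21), Ndufaf6 (-0.20), Ndufaf7 (-0.26), Ndufs1 (-0.17), Ndufa4 (-0.18), Ndufa10 (-0.25), Ndufa3 (-0.12), Ndufab1 (-0.16) and Ndufv2 (-0.07). Under quantile scaling, normexp with quantile and the deposited table they turned for Ndufa13 (-0.01, -0.02 and -0.01), Ndufa10 (-0.07 in each), Ndufa3 (-0.08, -0.09 and -0.08) and Ndufab1 (-0.07, -0.08 and -0.07). Ndufaf3 was -0.02 with slide and array row as blocks, added after seeing the data, Ndufv2 was -0.23 as the mean of its probes, and Ndufa4l2 was 0.01 with the atrial score and -0.15 to 0.05 without 1 array. Leaving out 1 array gave medians of 0.21 to 0.29 for core, 0.21 to 0.31 for accessory and 0.11 to 0.22 for assembly genes. With 50th percentile scaling 40 of the 42 core, accessory and assembly genes were above 0, with a median of 0.17. Of these 42 genes, 2 had an unadjusted p under 0.05. With the 75th percentile taken over probes above background on all arrays, all 42 were above 0 and 26 had an unadjusted p under 0.05. With the replicate number as a block, which does not pair these samples (0 of 5 arrays correlated best with their own number), the medians were 0.26, 0.26 and 0.16 and no call among the Nduf genes changed. The cause of these shifts was not tested.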
